A study of Drosophila melanogaster with 18 samples.

Results

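The data described here are the 8 enhancer constructs in which only the binding sites for CG12236-PB were mutated, of 93 constructs measured together by QeFS in Drosophila melanogaster embryos. They were taken from the tag tables by name, as every construct whose name ends in exactly -1, and each was set against the wildtype (WT) construct of the same enhancer. The 8 mutants carried 26 of the 312 tags in the tables, and their 8 wildtype constructs also carried 26. Each reporter places 1 enhancer version before an Hsp70 minimal promoter and GFP, with a short degenerate sequence tag in its transcript, and all reporters sit at the same genomic landing site, attP40. Transformant males with such a pool of reporters were mated to females of a driver line, twi:CD2 or mef2[IE-D5]:CD2, which puts the rat surface protein CD2 on chosen cells. Embryos laid over 2.25 hours were kept for 11 hours at 18 °C, dissociated and sorted with an antibody to CD2. The twi:CD2+ cells, from 3 collections, are embryonic mesoderm marked through the twist promoter. The mef2:CD2- cells, from 6 collections made in 2 weeks of 3 each, are what remains after the cells marked by a mef2 enhancer, the fusion-competent myoblasts, were removed, so that they hold many tissues. The paper uses the mef2:CD2- cells as a proxy for the whole embryo, because few cells are removed. They therefore still hold mesoderm. Each collection gave 1 RNA and 1 DNA library, 18 libraries in all.

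An enhancer is a stretch of DNA that raises transcription from a promoter when transcription factors bind to its sites, and mutating the sites of 1 factor tests what those sites contribute. CG12236 is a Drosophila gene on the X chromosome whose protein isoform PB has the zinc fingers and BTB domain found in many sequence-specific DNA binding proteins of insects. It is expressed broadly in the embryo, and the question asked with these constructs was whether its sites matter for enhancers that are active in mesoderm. The other sites mutated in the same enhancers belong to Deaf1, a DNA binding protein with a SAND domain, to the zinc finger protein ZIPIC, and to Schlank, a ceramide synthase with a homeodomain.

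The first 385 bases of each enhancer were read here, and the rest was not used. Within that stretch the -1 and WT versions differed in 5 of the 8 enhancers, by 1 or 2 bases a site. The changed sites are shown because they are what the compared versions differ by there. Changed bases are in capitals, sites are written on the strand that reads TTCCA in WT, and positions are counted from the first base of the enhancer.
ChIPCRM2000: cttccTg in the mutant and cttccAg in WT, substitution A195T.
ChIPCRM2613, first site: ttGccac in the mutant and ttTccac in WT, substitution T75G.
ChIPCRM2613, second site: tttccTg in the mutant and tttccAg in WT, substitution A206T.
ChIPCRM5432: tAtccag in the mutant and tTtccag in WT, substitution T178A.
ChIPCRM5792: tttccGg in the mutant and tttccAg in WT, read on the reverse strand, substitution T284C on the listed strand.
ChIPCRM5857: ttCTcag in the mutant and ttTCcag in WT, substitutions T68C and C69T.
Each of the 6 sites was taken here as the match to the letters TTCCA in WT that holds the changed base. That all hold these letters in WT and none does in the mutant follows from this definition. In ChIPCRM5432 the changed base lies 14 bases from the nearest base that is changed in the Deaf1 mutant of the same enhancer. Within the stretch read this distance is 9 bases in ChIPCRM5792, 26 in ChIPCRM5857 and 76 in ChIPCRM2000. For the sites of ChIPCRM2613 the nearest other changed base is that of the ZIPIC mutant, 15 and 115 bases away. For ChIPCRM2497, ChIPCRM2847 and hth_3 no base differs within these 385 bases, so that their changed sites are not shown. The stretch of ChIPCRM2497 holds 1 match to TTCCA, which is unchanged in the mutant.

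Activity was read from each tag in each collection, as the fraction of RNA UMIs that fell on it over the corresponding fraction of DNA UMIs. A tag that makes up equal parts of both libraries thus has an activity of 1. UMIs are random 8-base labels that count molecules. A tag in a collection was kept as 1 observation if it had at least 65 DNA UMIs and was seen in the RNA. Of the 26 mutant tags, 21 gave at least 1 observation, with 59 observations in twi:CD2+ cells (median 1437 DNA UMIs) and 100 in mef2:CD2- cells (median 540.5 DNA UMIs). RNA libraries had 813922 to 1366066 UMIs in twi:CD2+ cells, and 560294 to 1201998 in the mef2:CD2- population. DNA libraries had 317396 to 621449 UMIs in twi:CD2+ cells, and 54038 to 248151 in the mef2:CD2- population. Counting error alone gave a median SD of 0.06 and 0.08 on the log2 scale in the 2 populations, and up to 0.84 for the weakest observation.

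A test over observations called 3 of 7 testable enhancers lower in twi:CD2+ cells when their CG12236-PB sites were mutated. In the mef2:CD2- population it called 4 of 7 lower and 1 higher. The lowest ratio of mutant to wildtype was 0.275, in twi:CD2+ cells. A fit with tags as the units, described below, placed 1 of 7 lower in twi:CD2+ cells. It placed none lower in the mef2:CD2- population. ChIPCRM2847, ChIPCRM2497 and ChIPCRM5432 were called lower in both populations, ChIPCRM2613 was called lower and ChIPCRM2000 higher in mef2:CD2- cells alone, and ChIPCRM5857 and hth_3 were called in neither. The remaining enhancer, ChIPCRM5792, could not be tested for want of wildtype observations. A call means an adjusted p under 0.1 in a two-sided exact permutation test of mean ranks over observations, made after a Kruskal-Wallis test over the constructs of the enhancer. By this test 3 of 7 mutants were lower in twi:CD2+ cells, where 22.4% of all 67 mutants of all enhancers were called lower, and none was higher (0 at an unadjusted p under 0.05), against 4.48% of all mutants. In mef2:CD2- cells 4 of 7 were lower and 1 was higher, against 41.7% and 11.1% of all 72 mutants. The median log2 effect over the 7 mutants was -0.52 in twi:CD2+ cells, and -0.74 in the mef2:CD2- population, against -0.51 and -0.32 over all mutants fitted.

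The observation test treats the same tag in different collections as independent, so it was set beside others. The limma fit on the log2 ratio of mutant to WT in each collection uses collections as the units. It estimates 1 spread per mutant over both populations and shares it in part over all mutants. Its twi:CD2+ p-values and intervals therefore do not measure the spread of the 3 twi:CD2+ collections alone. It has no term for week. By the paper, each set of 3 collections came from separate parental flies, so that the collections of 1 set share parents. By an adjusted p under 0.05 limma placed 1 of 7 mutants lower in twi:CD2+ cells, against 17.8% of all mutants. It placed 4 of 7 lower in mef2:CD2- cells, against 30.6%. It placed none higher in either population (0 at an unadjusted p under 0.05), against 4.11% of all mutants in twi:CD2+ cells, and 8.33% of them in the mef2:CD2- population. A fit added after these uses the mean log2 activity of each tag as the unit, with the spread of tags pooled over all constructs, with an SD on the log2 scale of 0.80 (twi:CD2+) and 0.78 (mef2:CD2-). With 2 to 4 tags per construct its intervals were wide, and 1 mutant passed the threshold of 0.05 in twi:CD2+ cells and none in mef2:CD2- cells, where 1 had an unadjusted p under 0.05. Over all mutants this fit placed 10.4% lower and 1.49% higher in twi:CD2+ cells, and 11.1% lower and 1.39% higher in mef2:CD2- cells. All tag means of the mutant lay below all tag means of WT for 3 of 7 mutants in twi:CD2+ cells and for 2 of 7 in mef2:CD2- cells, against 31.3% and 34.7% of all mutants, and they lay above for 0 of 7 in both, against 0% and 5.56%. Most of the calls below therefore rest on the observation test, which counts each collection of a tag as a separate value, or on limma, whose units are collections and not tags.

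ChIPCRM2847, which lies in an intron of the insulin receptor gene InR, showed the largest mean loss of the 7 in both populations. In twi:CD2+ cells the mutant had an activity of 0.0459, 0.0784 and 0.0580 in replicates 1 to 3, against 0.160, 0.329 and 0.173 for WT. Every mutant value lay below every WT value. The log2 effects were -1.80, -2.07 and -1.58, a mean of -1.82 ± 0.25 (SD, n = 3 collections) with a limma adjusted p of 0.0012. The means of the 3 mutant tags, 0.0405 to 0.0835, did not overlap those of the 3 WT tags, 0.172 to 0.316. Observations averaged 0.0608 in the mutant and 0.221 in WT, a ratio of 0.275 (adjusted p = 4.32e-04, exact permutation test). The fit over tags gave -1.93 (95% interval -3.23 to -0.63, adjusted p = 0.036), and this was the mutant that passed it. That pass was lost when any of 5 of the 6 tags was left out, with adjusted p of 0.053 and 0.20 without mutant tags B and C, and of 0.136, 0.061 and 0.053 without WT tags A, B and C. Without mutant tag A it was 0.021. The observation test called the mutant without each of the 6 tags, at ratios of 0.224 to 0.351.

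In mef2:CD2- cells ChIPCRM2847-1 had 0.0498, 0.0767 and 0.138 as its lowest, median and highest activity over the 6 collections, against 0.134, 0.220 and 0.309 for WT. The mutant was lower in each of the 6 collections, although the highest mutant value exceeded the lowest WT value. In replicates 3, 4 and 6 the WT value came from 1 tag, tag A, the highest of the WT tags in these cells. In log2 terms the effects were -1.17, -1.42 and -0.94 in week 1 and -0.99, -2.29 and -1.76 in week 2, a mean of -1.43 ± 0.52 (SD, n = 6 collections), with a limma adjusted p of 2.86e-04. Observations averaged 0.0808 ± 0.0415 (SD, n = 14) in the mutant and 0.206 ± 0.0915 (SD, n = 11) in WT, a ratio of 0.392 (adjusted p = 3.10e-04, exact permutation test). Tag means overlapped slightly here, at 0.0476 to 0.111 in the mutant against 0.108 to 0.252 in WT, and the fit over tags gave -1.51 (95% interval -2.77 to -0.25, adjusted p = 0.12). Without mutant tag B that fit passed, with an adjusted p of 0.044. Leaving out WT tag A left 3 collections with a WT value, with a mean log2 effect of -1.32. The ratio over observations was then 0.533 (adjusted p = 0.056, exact permutation test), and the mutant was still called.

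ChIPCRM5432 was the most active of the 8 wildtype enhancers, and its mutant also had the highest mean activity of the -1 constructs. The twi:CD2+ activity of ChIPCRM5432-1 was 2.88, 2.94 and 3.20 in replicates 1 to 3, against 12.3, 6.32 and 2.89 for WT. The mutant varied little between collections while WT spanned a wide range, and in replicate 3 the mutant was slightly higher. The log2 effects were -2.10, -1.10 and 0.15, a mean of -1.02 ± 1.12 (SD, n = 3 collections), with a limma adjusted p of 0.089. The observation test called it (ratio 0.380, adjusted p = 0.063, exact permutation test), but that rested on 1 wildtype tag, tag C, with a single observation of 26.0 from 72 DNA UMIs. Without that tag the ratio was 0.614 and the adjusted p 0.11 by the same exact permutation test. It also rested on single collections and tags: without twi:CD2+ replicate 1 the ratio was 0.667 (adjusted p = 0.61), without replicate 2 it was 0.356 (adjusted p = 0.30), and without WT tag A it was 0.301 (adjusted p = 0.25), all by the exact permutation test. Without replicate 3, on the other hand, limma also passed (mean log2 effect -1.60, adjusted p = 0.0102).

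In mef2:CD2- cells ChIPCRM5432-1 had 1.53, 2.74 and 3.18 as lowest, median and highest activity, against 3.35, 6.24 and 7.95 for WT, and the 2 sets of 6 collections did not overlap. By collection, the log2 effects were -1.29, -0.82 and -0.48 in week 1 and -1.30, -1.64 and -1.66 in week 2, a mean of -1.20 ± 0.47 (SD, n = 6 collections), with a limma adjusted p of 0.0058. Observations averaged 2.60 ± 0.698 (SD, n = 12) in the mutant and 6.11 ± 3.30 (SD, n = 14) in WT, a ratio of 0.426 (adjusted p = 9.84e-04, exact permutation test). Tag means were 2.48 to 2.72 for the 2 mutant tags against 4.51 to 7.51 for the 3 WT tags, and did not overlap, while the fit over tags gave -0.99 (95% interval -2.39 to 0.42, adjusted p = 0.67).

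The counts of ChIPCRM5432-1 came close to the number of molecules that 8-base UMIs can tell apart. Its highest RNA count, 53453 UMIs, was 81.6% of all possible UMIs. If all UMIs were equally frequent, the RNA of the mutant tags was undercounted 1.12- to 2.07-fold in mef2:CD2- cells and 1.36- to 1.75-fold in twi:CD2+ cells, and that of the WT tags by up to 1.39-fold and 1.40-fold. With counts corrected for such collisions the ratio of mutant to WT was 0.493 in twi:CD2+ cells (adjusted p = 0.20, exact permutation test) and 0.520 in mef2:CD2- cells (adjusted p = 0.0107, exact permutation test), so that the call stayed in mef2:CD2- cells only. With read counts in place of UMIs it was 0.712 and 0.206, with adjusted p of 0.65 and 0.24 by the exact permutation test, and neither population was called.

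ChIPCRM2497 showed a smaller loss of like size in both populations. The twi:CD2+ activity of ChIPCRM2497-1 was 0.729, 0.832 and 1.06, against 1.64, 1.14 and 1.36 for WT, and no mutant value reached a WT value. The log2 effects were -1.17, -0.46 and -0.37, a mean of -0.66 ± 0.44 (SD, n = 3 collections). The ratio over observations was 0.632 (adjusted p = 0.053, exact permutation test), whereas limma gave an adjusted p of 0.18. The call was lost without any single collection, with an adjusted p of 0.12 to 0.53 by the exact permutation test.

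In mef2:CD2- cells ChIPCRM2497-1 had 0.409, 0.880 and 1.16 as lowest, median and highest activity, against 1.17, 1.27 and 1.61 for WT, again without overlap. By collection, the log2 effects were -0.46, -0.51 and -0.15 in week 1 and -1.51, -0.80 and -1.06 in week 2, a mean of -0.75 ± 0.49 (SD, n = 6 collections), with a limma adjusted p of 0.028. The limma p rose above 0.05 without mef2:CD2- replicate 2, 4, 5 or 6, to between 0.052 and 0.086 adjusted. The mean effect was -0.37 in week 1 and -1.12 in week 2. The ratio over observations was 0.623 (adjusted p = 9.01e-04, exact permutation test). Both constructs had 2 tags, whose means were 0.757 and 0.867 in the mutant and 1.43 and 1.17 in WT in these cells, and 0.801 and 0.944 against 1.40 and 1.37 in twi:CD2+ cells. The tags did not overlap in either population, but 2 tags against 2 cannot give an exact permutation p below 0.333, and the fit over tags had intervals of -2.29 to 0.79 in mef2:CD2- cells and -2.28 to 0.90 in twi:CD2+ cells.

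ChIPCRM2613, with 2 changed sites in the stretch read, was called lower in mef2:CD2- cells alone. There the mutant had 0.435, 0.783 and 1.06 as lowest, median and highest activity, against 0.783, 1.20 and 1.81 for WT. The mutant was lower in each of the 6 collections, with log2 effects of -0.20, -0.64 and -0.64 in week 1 and -0.85, -1.33 and -0.77 in week 2, and the mean was -0.74 ± 0.37 (SD, n = 6 collections; limma adjusted p = 0.030). With mef2:CD2- replicate 2, 3, 4, 5 or 6 left out, the limma adjusted p was 0.0501 to 0.099. The ratio over observations was 0.603 (adjusted p = 0.017, exact permutation test), and 0.717 in week 1 alone, where it was not called (adjusted p = 0.21, exact permutation test). Leaving out mutant tag D, 1 of the 2 mutant tags, took the call away (ratio 0.717, adjusted p = 0.26, exact permutation test), and tag means overlapped at 0.617 and 0.907 in the mutant against 0.792 to 1.42 in WT.

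The twi:CD2+ activity of ChIPCRM2613-1 was 1.41, 1.63 and 1.02, against 2.57, 1.65 and 0.690 for WT, and the values of the mutant lay within the range of WT. The log2 effects of -0.87, -0.02 and 0.57 averaged -0.11 ± 0.72 (SD, n = 3 collections), with a 95% interval of -0.85 to 0.63 in limma. The effect in twi:CD2+ minus that in mef2:CD2- cells was 0.63 (95% interval -0.27 to 1.54) with an adjusted p of 0.99 in limma, so that a difference between the populations was not shown. Mutant tag D, which carried the lower mef2:CD2- values, was the highest mutant tag in twi:CD2+ cells at 2.31, against 0.692 and 0.954 for the other two. Without it the twi:CD2+ ratio over observations was 0.558, against 0.917 with it, and was called in neither case.

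ChIPCRM2000 was the enhancer whose mutant was called higher, in mef2:CD2- cells. The mutant had 0.137, 0.331 and 0.603 as lowest, median and highest activity, against 0.0659, 0.167 and 0.719 for WT. It was higher in 5 of 6 collections, with log2 effects of 0.16, 1.03 and 1.06 in week 1 and -0.81, 1.71 and 1.22 in week 2, and the mean was 0.73 ± 0.90 (SD, n = 6 collections; limma adjusted p = 0.14, 95% interval -0.08 to 1.54). The ratio over observations was 1.55 (adjusted p = 0.059, exact permutation test). The call was lost without mef2:CD2- replicate 2, 5 or 6 (ratio 1.48, 1.26 and 1.33), without mutant tag B (1.64) and without WT tag A (1.24), and in each week taken alone (1.58 in week 1 and 1.42 in week 2). Without mef2:CD2- replicate 4, the collection with the negative effect, the ratio was 2.49 (adjusted p = 0.023, exact permutation test) and limma also passed (adjusted p = 0.047). Tag means overlapped, at 0.283 to 0.500 in the mutant against 0.186 and 0.334 in WT.

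The twi:CD2+ activity of ChIPCRM2000-1 was 0.101, 0.226 and 0.136, against 0.0770, 0.0629 and 0.269 for WT. The log2 effects of 0.39, 1.84 and -0.99 pointed both ways, the mean was 0.42 ± 1.42 (SD, n = 3 collections), and the limma interval of -0.73 to 1.56 holds both a gain and a loss.

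The activity of ChIPCRM5857 was the lowest of the 8, and its limma intervals were the widest of the 7. In twi:CD2+ cells the mutant had 0.115, 0.00190 and 0.0736, against 0.0315, 0.0441 and 0.0342 for WT, so that the mutant lay above WT in replicates 1 and 3 and far below it in replicate 2. The log2 effects were 1.87, -4.54 and 1.11. In replicate 2 both mutant tags were low, with 5 and 3 RNA UMIs on 940 and 317 DNA UMIs. The ratio over observations was 1.74 and the mean log2 effect -0.52, so that the direction depends on how the collections are averaged. In mef2:CD2- cells the mutant had 0.00324, 0.0230 and 0.0506 as lowest, median and highest activity, against 0.0169, 0.0241 and 0.0347 for WT. By collection, the log2 effects were -0.71, 0.60 and -2.73 in week 1 and -0.38, -0.32 and 0.54 in week 2, with a limma interval of -1.94 to 0.94. That interval holds 0 and also the mean effect of -1.43 measured for ChIPCRM2847-1.

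For hth_3 the mutant and WT were close in mef2:CD2- cells. The mutant had 0.941, 1.19 and 1.21 as lowest, median and highest activity, against 0.712, 1.14 and 1.37 for WT, and the log2 effects ran between -0.17 and 0.40, with 3 of 6 below 0. Their mean was 0.06 ± 0.21 (SD, n = 6 collections) with a limma interval of -0.52 to 0.64, a range that does not reach the mean effect of -1.43 measured for ChIPCRM2847-1. The fit over tags gave a wider 95% interval, of -1.31 to 1.51. That interval holds the mean effects of ChIPCRM2613-1 (-0.74), ChIPCRM2497-1 (-0.75) and ChIPCRM5432-1 (-1.20) in these cells. In twi:CD2+ cells the mutant had 2.18, 1.95 and 0.991, against 2.29, 1.29 and 3.08 for WT. By collection, the log2 effects were -0.07, 0.60 and -1.64, a mean of -0.37 ± 1.15 (SD, n = 3 collections), with a limma interval of -1.20 to 0.46. Without mutant tag B, the highest of its 3 tags, the ratio over observations was 0.474, against 0.755 with it, and was called in neither case.

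ChIPCRM5792-1 was well measured itself, with 9 observations from 3 tags in twi:CD2+ cells, and 16 in the mef2:CD2- population, but its wildtype had 1 observation, in twi:CD2+ replicate 1. There the mutant had 1.13 against 0.987 for WT, a log2 effect of 0.20 with no replicate. In the other collections the mutant ranged from 1.01 to 3.27, with no WT value to set beside it.

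No effect of a mutant was shown to differ between the populations. Since the mef2:CD2- cells still hold mesoderm, this does not set mesoderm against other tissue. The populations also came from different crosses. In the limma contrast of the effect in twi:CD2+ minus that in mef2:CD2- cells, 0 of the 7 mutants passed an adjusted p of 0.05, against 2.78% of all mutants, and 0 had an unadjusted p under 0.05. The differences ran from -0.43 for hth_3-1 to 0.63 for ChIPCRM2613-1. For ChIPCRM2847-1 the difference was -0.39 with a 95% interval of -1.27 to 0.49, so that a markedly deeper loss in twi:CD2+ cells lies within the interval. The exact permutation test of 3 against 6 collections also passed none, with p of 0.131 or more.

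Set beside the other single motif mutants, the directions are given as counts only. In mef2:CD2- cells 5 of 7 CG12236-PB mutants and 8 of 10 Deaf1 mutants had a mean log2 effect below 0, with medians of -0.74 and -0.63, whereas 2 of 6 Schlank mutants and 3 of 7 ZIPIC mutants did, with medians of 0.66 and 0.12. Over all mutants it was 46 of 72. In twi:CD2+ cells 6 of 7 CG12236-PB and 8 of 10 Deaf1 mutants were below 0, against 2 of 6 for Schlank and 6 of 8 for ZIPIC, and over all mutants it was 57 of 73. The counts for CG12236-PB and Deaf1 were thus near those of all mutants. All mutants include double and triple mutants, some with these same sites mutated, and mutants of the control enhancers. Mutants of 1 enhancer share their WT construct, so these counts are not independent.

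The same CG12236-PB mutation was also made in constructs whose Deaf1, ZIPIC or Schlank sites were already mutated, which gave 17 further pairs in twi:CD2+ cells, and 16 in the mef2:CD2- population that differ only by it. Of these, 1 pair was lower by limma in each population and 1 was higher in mef2:CD2- cells, against 14.9%, 26.1% and 13.4% of all pairs that differ by 1 motif. None was higher in twi:CD2+ cells, where 8.26% of all pairs were and where 1 of these had an unadjusted p under 0.05. The median log2 effect of these steps was -0.26 in twi:CD2+ cells, and -0.11 in the mef2:CD2- population.

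The largest of these steps in both populations was that of ChIPCRM5432 with mutated Deaf1 sites. There the double mutant averaged 0.0181 in twi:CD2+ cells, and 0.0203 in the mef2:CD2- population, against 3.23 and 3.65 for the Deaf1 mutant alone. The steps on the log2 scale were -7.47 ± 1.03 (SD, n = 3 collections) and -7.53 ± 0.57 (SD, n = 6 collections), with limma adjusted p of 3.62e-09 and 5.52e-11, and all 3 tags of the double mutant were low, at 0.00681 to 0.0272 in twi:CD2+ cells, and 0.0177 to 0.0250 in the mef2:CD2- population. When ZIPIC sites were mutated as well, the step was 0.09 and 0.01, with 3.67 and 3.25 for the triple mutant against 3.43 and 3.17 for the construct with intact CG12236-PB sites. With ZIPIC sites mutated alone it was -0.21 and -0.38, and neither passed. The differences between these backgrounds were not tested.

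In ChIPCRM2847 the loss was not measured again once Deaf1 sites were mutated. The step was 0.41 (95% interval -0.38 to 1.21) in twi:CD2+ cells and 0.09 (-0.48 to 0.65) in mef2:CD2- cells, where the Deaf1 mutant was already at 0.0412 and 0.0538, close to the single CG12236-PB mutant. With Deaf1 and Schlank sites mutated, the construct with mutated CG12236-PB sites had 0.149 and 0.153 against 0.224 and 0.250, a step of -0.57 and -0.66 (limma adjusted p = 0.37 and 0.086).

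In ChIPCRM2497 with mutated Schlank sites the step was lower in every collection of both populations, -0.80 ± 0.37 (SD, n = 3 collections; limma adjusted p = 0.065) in twi:CD2+ cells and -0.33 ± 0.30 (SD, n = 6 collections; limma adjusted p = 0.24) in mef2:CD2- cells. For ChIPCRM5792, which lacked a usable wildtype, the step from the ZIPIC mutant was -0.52 in twi:CD2+ cells, lower in 3 of 3 collections, and -0.62 in mef2:CD2- cells, lower in 5 of 6, with limma adjusted p of 0.49 and 0.14. With Deaf1 sites mutated as well it was -0.25 in twi:CD2+ cells, lower in 2 of 3, and -0.06 in mef2:CD2- cells, lower in 4 of 6, where single collections ran from -1.23 to 1.15 (limma adjusted p = 0.72 and 0.87). The pair that was higher was ChIPCRM5857 with mutated Deaf1 sites in mef2:CD2- cells, at 0.0381 against 0.0148, a step of 1.33 ± 1.24 (SD, n = 6 collections; limma adjusted p = 0.025), and it did not pass without mef2:CD2- replicate 1, 2 or 5. Its 3 tags in the double mutant averaged 0.0180 to 0.0782, against 0.0114 to 0.0156 for the 4 tags of the Deaf1 mutant. In twi:CD2+ cells the same pair gave -0.64 (limma adjusted p = 0.53).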

How the data were processed

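The authors took the first 8 bases of a read as its UMI, trimmed constant parts with cutadapt 1.14, aligned tags with Bowtie and deposited, for each library, the counts of UMIs and of reads per tag, without normalization. UMI counts were used here, and read counts as an alternative. Activities, log2 ratios and exact tests were computed in Python 3.11.15 with scipy 1.17.1 and pandas 2.3.3, and limma 3.58.1 was run in R 4.3.3. Tags with at least 65 DNA UMIs and present in RNA were kept, 705 observations in twi:CD2+ and 1341 in mef2:CD2- cells over all constructs, and constructs needed at least 4 observations. The Kruskal-Wallis test used 100000 permutations and a threshold of 0.1, with Benjamini-Hochberg adjustment over the pairs of constructs of an enhancer. In limma and in the fit on tag means the adjustment ran over all mutants of a population. Where the study used a t distribution (Conover-Iman), exact permutations were used. Every enhancer with a -1 construct was named, and a tag was singled out where leaving it out changed a call of the observation test or of the fit on tag means, or moved a ratio by over 1.5 times. The members and comparisons were chosen with earlier results of these data known. Replicates are separate embryo collections. P-values of the observation test and of the fit on tag means measure the spread between observations or tags. Those of limma measure a spread between collections, pooled over both populations and shared in part over all mutants or pairs. For ChIPCRM5857-1 in twi:CD2+ cells the SD over 3 collections was 3.50, and the standard error in limma was 0.94. Intervals of limma are 95% intervals. The observation test, limma and the fit on tag means were run on simulated counts with a known loss, and most such losses were recovered. That loss was larger than the mean loss measured for any -1 construct. The simulated spread between tags was smaller than the measured SD of 0.80 (twi:CD2+) and 0.78 (mef2:CD2-) on the log2 scale. These runs therefore do not show how often unchanged mutants would be called in the measured data. Nor do they show how often losses of the measured size would be found.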

Additional observations from a re-analysis of the deposited data

Results flagged for a closer look

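Among 22 sets of 6 mef2:CD2- collections examined for a value set apart from the others by Dixon's criterion, 2 held one, where chance would mark about 1 in 20 sets. The activity of hth_3-1 in mef2:CD2- replicate 3 was 0.941, below the other 5 collections at 1.11 to 1.21. The activity of ChIPCRM2497-WT in mef2:CD2- replicate 5 was 1.61, above the other 5 at 1.17 to 1.29. None of the log2 effects of a mutant against WT met the criterion.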

How the results depend on the processing

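No direction of a called effect turned under any alternative. ChIPCRM2847-1 kept its calls in both populations under all of them except the exact test on tag means, which cannot give a p below 0.1 with 3 tags against 3 and called 0 mutants in all, and, in mef2:CD2- cells, the fit on tag means with pooled spread, chosen after seeing the data. The number called lower in twi:CD2+ cells was 1 at an adjusted p threshold of 0.05, 1 in the fit on tag means and 1 to 2 with single collections left out. ChIPCRM5432-1 also lost its call there with a minimum of 200 DNA UMIs, with read counts, with counts corrected for collisions and with tags present in every collection. The number called lower in mef2:CD2- cells was 0 in the fit and in the exact test on tag means, and 3 to 4 under the other alternatives. The 1 call higher in mef2:CD2- cells became 0 with a minimum of 20 DNA UMIs, with tags present in every collection, in week 1 alone, in week 2 alone, at the threshold of 0.05, and in the fit on tag means, and was 0 to 1 with single collections left out. In limma, the number lower in mef2:CD2- cells was 2 with a minimum of 20 DNA UMIs, 2 with read counts, 1 in week 1 alone, 2 in week 2 alone and 2 to 4 with single collections left out. ChIPCRM2613-1 did not pass limma there with DNA UMI weights (adjusted p = 0.13) or a minimum of 200 DNA UMIs (0.075). With means of log2 activity it did not pass either (limma adjusted p = 0.067). With a minimum of 200 DNA UMIs 1 mutant was higher in mef2:CD2- cells, and 0 to 1 with single collections left out. The number lower in twi:CD2+ cells was 2 with DNA UMI weights and 1 to 2 with single collections left out. The exact sign-flip test passed 0 mutants in either population. With 3 collections its smallest possible p is 0.25, so that none could pass in twi:CD2+ cells. With 6 collections it is 0.03125. ChIPCRM2497-1, ChIPCRM2613-1, ChIPCRM2847-1 and ChIPCRM5432-1 had this p in mef2:CD2- cells, each with an adjusted p of 0.087 in the sign-flip test. Of the steps in other mutants, 3 were lower in mef2:CD2- cells with read counts, and 0 were higher with means of log2 activity. With single collections left out, 1 to 2 steps were lower in mef2:CD2- cells, 0 to 1 were higher there, and 1 to 2 were lower in twi:CD2+ cells. The collection as a replicate block in the observation test left the counts of calls at 3 and 4 lower and 1 higher, and replicate numbers pair no samples across populations. The effects differed between populations for 0 mutants under every alternative run for that contrast. Summed UMIs and means of log2 activity have no observations to rank, so the observation test was not run on them. Tested constructs had 2 to 4 tags. For ChIPCRM5857-1 counting error gave an SD of up to 0.84 per observation, while its log2 effects in twi:CD2+ cells had an SD of 3.50 over 3 collections.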

Other observations

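All 4 CG12236-PB site mutants called lower in mef2:CD2- cells had a deeper mean loss in week 2 than in week 1, by 0.49 to 0.75 on the log2 scale. ChIPCRM2847-1 had -1.68 in week 2 and -1.18 in week 1, and ChIPCRM5432-1 had -1.53 and -0.86. ChIPCRM2613-1 had -0.98 and -0.49, and ChIPCRM2497-1 had -1.12 and -0.37. Over all mutants of all enhancers measured in both weeks, 42 of 71 were lower in week 2, with a median difference of -0.09, and over those called lower it was 19 of 30, with a median of -0.20. The DNA libraries held 143411 to 248151 UMIs in week 2 and 54038 to 116821 in week 1. The WT tags kept also differed between weeks. ChIPCRM2847-WT tag B was kept in week 1 alone, and ChIPCRM5432-WT tag C and ChIPCRM2613-WT tag A in week 2 alone. ChIPCRM2847-WT rested on tag A alone in replicate 3 of week 1 and in replicates 4 and 6 of week 2. For ChIPCRM2497 the same tags were kept in every collection. The parts of depth and of the tags kept in this difference were not tested, and the difference itself was not tested either.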
